A study of Mus musculus with 2 samples.

Results

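Timp1, Timp2 and Timp3 encode tissue inhibitors of metalloproteinases, secreted proteins that bind to the active site of matrix-cleaving enzymes and block it. The 3 genes were taken by symbol from the count tables, out of 10198 genes listed for both libraries. They were chosen by their UMI counts in these same libraries, among them the Timp1 difference between niche and distal cells, so their levels and ratios are given as a description, without a test. Timp4, the remaining gene of the family, is listed in neither table. The niche library held CD45- lung cells titled as niche cells, and the distal library held CD45- cells titled as cells of the distal lung. All came from mouse lungs taken 7 days after Labelling-4T1 cells had been given intravenously, and were sorted by flow cytometry and profiled with the Chromium 3' single-cell chemistry. CD45 is the surface protein shared by leukocytes, 4T1 cells are a breast cancer line of mouse origin that forms lung metastases, and the labelling form passes a fluorescent protein to cells close by. Strain, age, number of mice, the gates used and whether injected cells were kept out are not given in the labels used here.

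TIMP proteins keep the breakdown of collagen, elastin and basement membrane in check, and they differ in where they act. TIMP1 is a soluble inhibitor whose gene is known to respond to inflammatory cytokines, growth factors and injury. TIMP2 is made steadily by many cell types, and besides inhibiting proteases it takes part in activating the gelatinase pro-MMP2 at the cell surface together with MMP14. TIMP3 binds to the extracellular matrix and has the widest range of targets, since it also inhibits ADAM and ADAMTS proteases, among them the shedding enzyme ADAM17.

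In the mm10 genome with GENCODE vM21 annotation, Timp1 lies at chrX:20870166-20874735 on the plus strand, with 6 exons. It sits inside Syn1, which runs on the opposite strand. Timp2 lies at chr11:118301069-118355740 on the minus strand, with 5 exons, and holds the smaller gene Cep295nl on its own strand. Timp3 lies at chr10:86300372-86349506 on the plus strand, with 5 exons, inside Syn3 on the opposite strand. No exon base of a Timp gene is shared with an exon of its partner gene (0 bases each), and Syn1, Syn3 and Cep295nl are listed in neither table. The 250 bases before the RefSeq start of each gene (build GRCm38.p6) are shown because the genes differed in how their levels ran across cell types and between the libraries. The RefSeq and GENCODE starts are not the same for Timp2 and Timp3. The Timp2 stretch lies wholly inside the GENCODE gene given above, and the end of the Timp3 stretch lies inside GENCODE Timp3. Values of the 3 stretches therefore hold for the RefSeq starts only. Capitals mark the GC box (GGGCGG on either strand), and every line runs 5′ to 3′ on the gene's own strand.
Timp1, chrX:20869916-20870165 plus strand: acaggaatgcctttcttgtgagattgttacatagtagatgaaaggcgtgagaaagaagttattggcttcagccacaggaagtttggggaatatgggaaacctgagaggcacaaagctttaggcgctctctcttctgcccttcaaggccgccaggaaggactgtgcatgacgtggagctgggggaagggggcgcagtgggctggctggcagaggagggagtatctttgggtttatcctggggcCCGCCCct
Timp2, chr11:118355412-118355661 minus strand: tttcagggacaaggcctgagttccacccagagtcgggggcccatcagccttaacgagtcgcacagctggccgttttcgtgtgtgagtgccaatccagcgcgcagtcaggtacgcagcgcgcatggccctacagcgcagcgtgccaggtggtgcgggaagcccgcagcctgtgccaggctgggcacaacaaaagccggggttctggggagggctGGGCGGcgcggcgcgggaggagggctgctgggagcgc
Timp3, chr10:86300162-86300411 plus strand: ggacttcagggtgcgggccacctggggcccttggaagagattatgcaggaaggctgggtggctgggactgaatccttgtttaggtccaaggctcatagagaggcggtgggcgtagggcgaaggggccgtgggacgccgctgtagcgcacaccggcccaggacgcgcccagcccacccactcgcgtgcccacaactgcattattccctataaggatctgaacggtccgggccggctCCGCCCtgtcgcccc
The G and C content of these stretches was 54.4% for Timp1, 68.0% for Timp2 and 65.6% for Timp3, against a median of 52.4% over 32851 RefSeq promoters. Timp1 held 6 CG pairs, Timp2 held 21 and Timp3 held 18. Motifs were sought on both strands from 250 bases before to 50 bases after the start, and no matches overlapped. A GC box began at -8 in Timp1, at -37 in Timp2 and at -15 and +14 in Timp3, and 35.7% of all windows held one. The AP-1 variant TGAGTAA was found at +27 in Timp1 and in neither other gene, and 2.68% of all windows held it. The AP-1 element TGANTCA (in 7.81% of windows), the STAT element TTCNNNGAA (8.30%) and the TATA box TATAAA (13.6%) were found in 0 of the 3 windows. These are matches of letters and say nothing of a factor bound there.

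The niche table held 1473 barcodes with 5283584 transcript molecules, counted as unique molecular identifiers (UMIs), and distal cells were listed under 1996 barcodes with 4791701 UMIs. After filtering, 1423 niche cells with a median of 2975 UMIs and 1987 distal cells with a median of 1975 UMIs were kept, and 6 barcodes occurred in both libraries. Cells were clustered without the Timp genes, so that these did not shape the 21 clusters. Clusters were called like a cell type by marker genes, and are given with their leading genes. Each group has 1 library, so no difference had a replicate check and no p-value was computed. Levels are UMIs of a gene scaled to 1000000 UMIs of the cluster (CPM), and all intervals are exact 95% intervals for counting error only. A ratio was called 2-fold higher or lower where it reached 2-fold and its interval excluded equality. The numbers of cells per cluster can be set by the sort and the dissociation and were not compared.

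Cluster names were checked against their markers. The endothelial-like clusters had 6 or 7 of 7 endothelial markers in at least 25% of their cells, and the mesenchymal-like clusters had 6 to 9 of 9 mesenchymal markers. The alveolar myofibroblast-like cluster led by Acta2 and Enpp2 had 7 of 8 markers of that subtype. Its 10 leading genes held Enpp2 of these, beside Acta2, Actg2 and Tagln of the smooth muscle list, so its name is less certain. The alveolar type 1-like and alveolar type 2-like clusters had 7 of 8 epithelial markers. An epithelial-like cluster led by Lgals1 and Cks1b, with Krt8 and Krt18 among its leading genes, had 3 of 8. It held 54 niche and 0 distal cells, and 50 of the 54 had little of the nuclear RNA Malat1. A cluster of 198 niche and 3 distal cells led by C3, Mt2, Serpina3n, Ccl2 and Ccl7 had 7 of 9 mesenchymal markers. Its 10 leading genes held 1 marker of another class, Mgp of the arterial list, and 0 of its own, so it was left unnamed and is called the C3-led cluster. Little Malat1 was found in 59 of its 198 niche cells. Clusters led by Lck and Satb1 (45 niche and 24 distal cells) and by H2-DMb2 and Cd79b (21 niche and 10 distal cells) were given no class.

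Over all kept cells, Timp1 was the member with the widest gap between the libraries. It had 4031 UMIs or 790.5 CPM in niche cells, against 105 UMIs or 22.1 CPM in distal cells. Timp2 had 491 CPM in niche and 367 CPM in distal cells, a log2 ratio of niche over distal of 0.42 (95% interval 0.33 to 0.51). Timp3 had 451 CPM in niche and 286 CPM in distal cells, a log2 ratio of 0.66 (0.56 to 0.75). Library-wide values mix levels within cell types with the make-up of the libraries. Mesenchymal-like cells made up 46.0% of all UMIs among niche cells and 19.4% among distal cells, and endothelial-like cells 26.8% among niche cells and 54.4% among distal cells.

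Nearly all Timp1 molecules of the niche library lay in the C3-led and mesenchymal-like clusters. The C3-led cluster held 61.2% of the library's Timp1 UMIs, from 16.8% of all its UMIs, and mesenchymal-like cells held another 36.8%. Niche endothelial-like cells held 1.07% of Timp1 UMIs and niche epithelial-like cells 0.819%. In the distal library, mesenchymal-like cells held 67.6% of the 105 Timp1 UMIs, endothelial-like cells 21.9% and the 3 cells of the C3-led cluster 7.62%. Timp2 and Timp3 were shared out over more cell types. Of Timp2 UMIs, endothelial-like cells had 20.2% among niche cells and 50.7% among distal cells, and epithelial-like cells had 2.12% among niche and 9.79% among distal cells. Of Timp3 UMIs, endothelial-like cells had 24.3% among niche and 38.9% among distal cells, and epithelial-like cells had 0.739% among niche and 11.1% among distal cells.

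**Figure D1:**
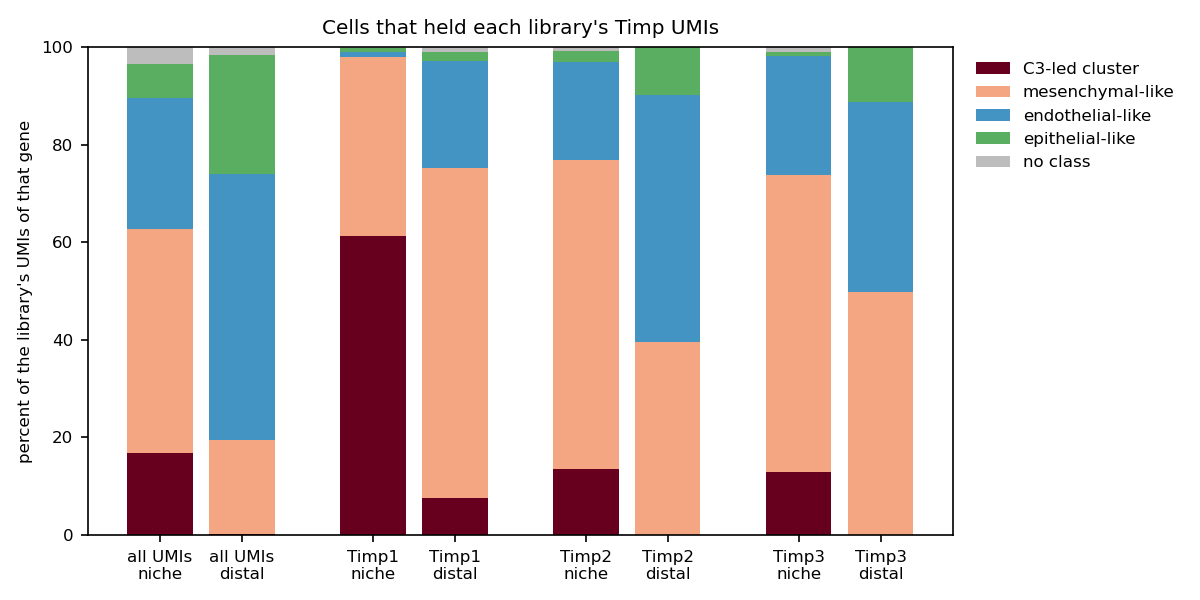
Share of each library's UMIs (vertical axis, percent) found in the C3-led cluster, in mesenchymal-like, endothelial-like and epithelial-like cells and in clusters of no class, for all UMIs and for each Timp gene, with niche left of distal. The C3-led cluster took 61.2% of niche Timp1 UMIs, against 13.4% of niche Timp2 and 13.0% of niche Timp3 UMIs.

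Timp1 spread widely among stromal clusters of the niche. The C3-led cluster stood highest, at 2887 CPM (2774 to 3003). The alveolar myofibroblast-like cluster led by Acta2 and Enpp2, with smooth muscle markers among its leading genes, followed at 1064 CPM (978 to 1156). The mesenchymal-like cluster led by Eln and Cxcl14 came next at 1011 CPM (925 to 1103). The intervals of this pair overlap, and both lie below that of the C3-led cluster. Then came the myofibroblast-like cluster led by Mustn1 and Aspn at 546 CPM (469 to 632), adventitial fibroblast-like cells, which sheath vessels and airways, at 301 CPM (256 to 353), and lipofibroblast-like cells, which support alveolar type 2 cells, at 185 CPM (146 to 232). None of these intervals overlap. Pericyte-like cells, the mural cells of capillaries, had 4 UMIs or 64.7 CPM (17.6 to 166). The C3-led, Acta2-led and Eln-led clusters held 3, 3 and 2 distal cells, too few to set beside the niche level.

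In distal clusters of at least 20 cells, Timp1 was highest in fibroblast-like cells. Adventitial fibroblast-like cells had 140.0 CPM (98.6 to 193) and the myofibroblast-like cluster led by Mustn1 and Aspn 98.0 CPM (60.6 to 149.7), which overlap. Lipofibroblast-like cells had 31.8 CPM (16.4 to 55.5). Every other distal cluster of at least 20 cells had 0 to 6 Timp1 UMIs, at most 20.1 CPM, with neighbouring intervals that overlap. The 3 distal cells of the C3-led cluster all had Timp1, with 8 UMIs together (869 CPM, 375 to 1713). Alveolar type 2-like cells, the surfactant makers, had 1 Timp1 UMI among 215 cells (0.92 CPM).

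In the fibroblast-like clusters found in both libraries, Timp1 was at least 2-fold higher in niche cells. In the Mustn1-led myofibroblast-like cluster the ratio was 5.46-fold (log2 2.45, 1.82 to 3.21; 179 niche against 21 distal UMIs). Lipofibroblast-like cells had a ratio of 5.64-fold (log2 2.49, 1.66 to 3.56; 77 against 12 UMIs). The niche values of this cluster depend on where its borders are drawn. At the finer clustering resolution of 2, lipofibroblast-like Timp1 was 63.9 CPM in niche and 24.0 CPM in distal cells, and at the coarser 0.5 it was 661 CPM in niche and 33.5 CPM in distal cells. The Mustn1-led cluster had 865 CPM in niche and 94.6 CPM in distal cells at resolution 0.5. Adventitial fibroblast-like cells, the highest distal cluster, had a ratio of 2.13-fold (log2 1.09, 0.58 to 1.67; 155 against 37 UMIs). Over all genes measured, 3.42%, 2.38% and 2.03% were called 2-fold higher in these 3 clusters, in the order given, and 3.92%, 2.62% and 3.84% 2-fold lower. Since this contrast was known when the members were chosen, nothing is read from that. Pericyte-like cells had 4 niche Timp1 UMIs (64.7 CPM), against 0 in 35 distal cells. The count of 0 allows up to 69.6 CPM by its exact interval, or 56.6 CPM at 3 UMIs. The ratio was not called, where 6.05% of genes were called higher and 4.36% lower.

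For the mesenchymal-like class without the C3-led cluster, Timp1 had 631 CPM in 585 niche cells and 77.1 CPM in 396 distal cells. The log2 ratio was 3.02 (2.69 to 3.40; 1482 niche against 71 distal UMIs), where 2.57% of 9894 genes were called 2-fold higher and 5.63% 2-fold lower. Its clusters differ between the libraries: those led by Acta2 and Enpp2 and by Eln and Cxcl14 held 201 of the 585 niche cells and 5 of the 396 distal cells. Without clusters that held under 20 cells in a library, the value was 2.02, and with the C3-led cluster in the class it was 3.85; both settings were chosen after seeing the data. The median log2 ratio of all genes in this class was -0.13, and TMM scaling put the overall shift at -0.11. Relative to that shift the log2 ratios were 3.14 for Timp1, -0.03 for Timp2 and -0.19 for Timp3.

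Timp1 differed between clusters in the share of cells with the transcript, and within the C3-led cluster in the amount per cell. With each cell thinned to 1200 UMIs, 78.3% of C3-led cells had at least 1 Timp1 UMI, 56.4% of the Acta2-led and 48.0% of the Eln-led cluster (92.9%, 81.2% and 76.0% before thinning). Thinned shares were 34.1% in niche and 8.42% in distal Mustn1-led cells (57.1% and 12.3% before thinning), and 17.9% in niche and 4.70% in distal lipofibroblast-like cells (31.0% and 6.67%). In adventitial fibroblast-like cells they were 22.0% (15.2% to 30.3%) in niche and 14.1% (7.26% to 23.8%) in distal cells, intervals that overlap. For background, 1 of 45 niche (2.22%) and 1 of 22 distal thinned cells (4.55%) of the Lck-led cluster had a Timp1 UMI. Thinning left out 1 niche and 353 distal cells that were shallower. Within the C3-led cluster a cell had a median of 6 and at most 162 Timp1 UMIs, and the top 10% of its cells held 44.9% of its Timp1 UMIs and 20.7% of all its UMIs.

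**Figure D2:**
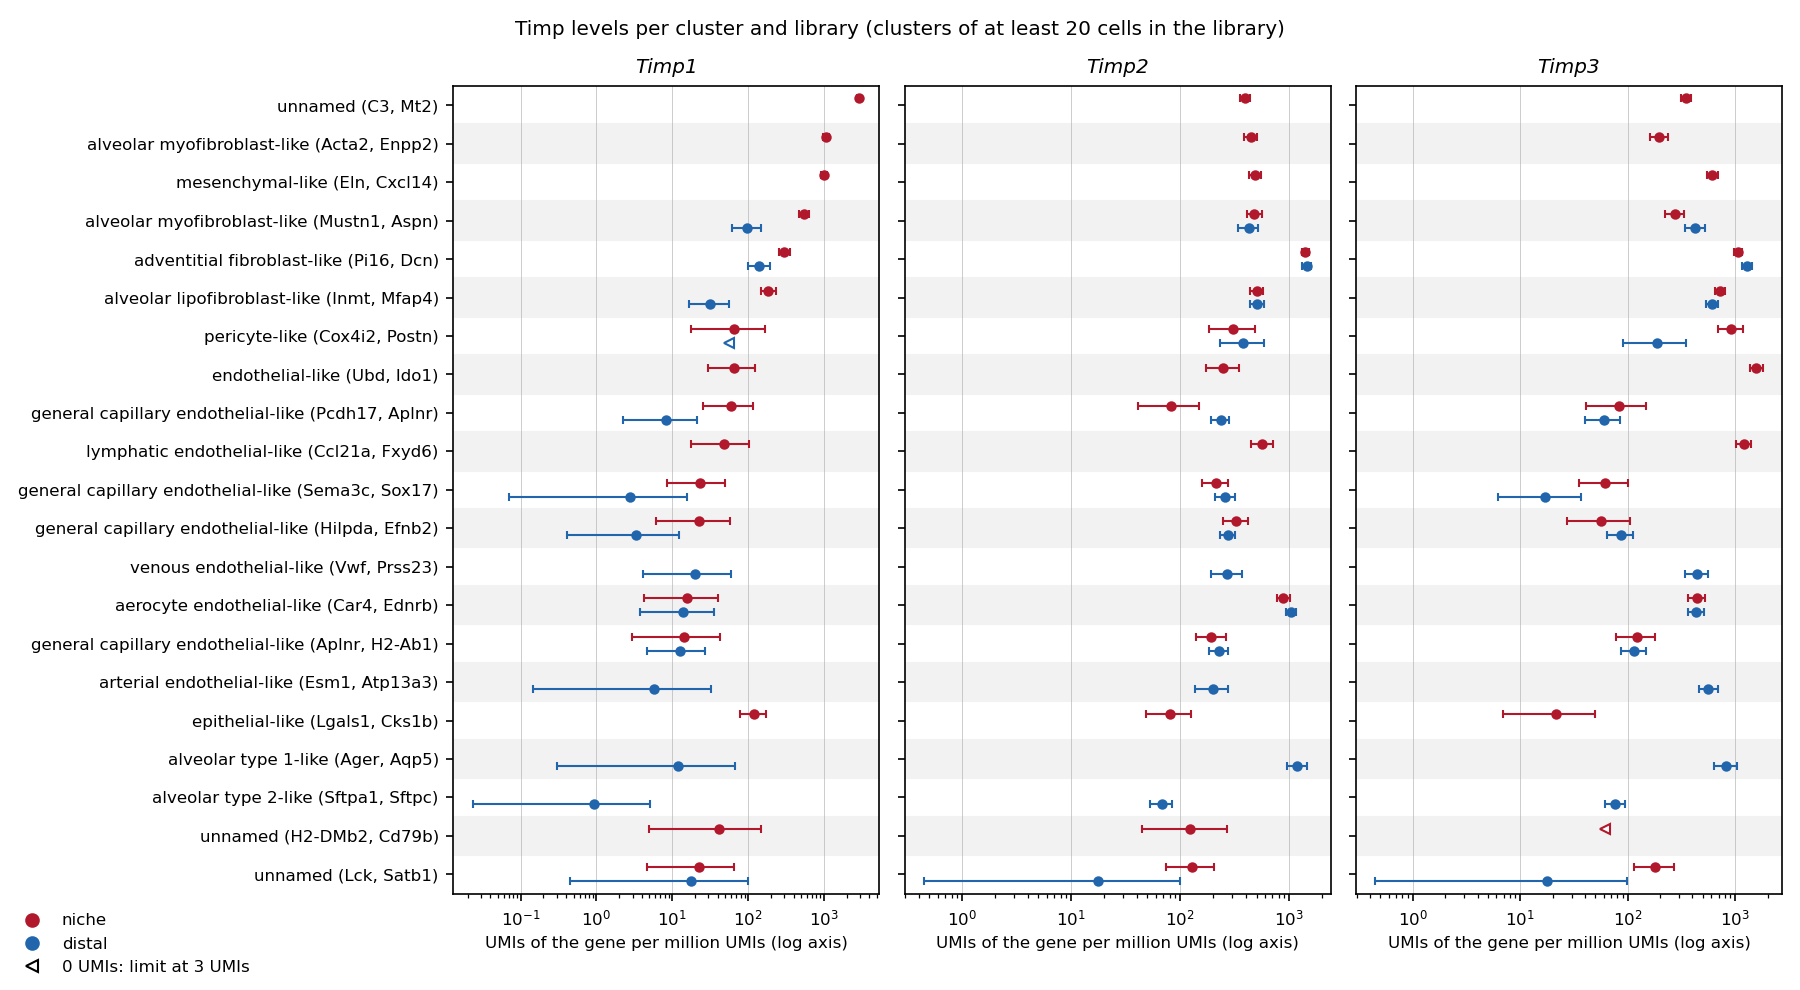
Level of Timp1, Timp2 and Timp3 (horizontal log axis, CPM) in every cluster with at least 20 cells in the library, niche (red) above distal (blue), with exact 95% Poisson intervals; open triangles mark 0 UMIs at the limit of 3 UMIs. Timp1 runs up to 2887 CPM in the C3-led cluster, while Timp2 peaks in adventitial fibroblast-like cells at 1406 CPM in niche and 1438 CPM in distal cells.

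Timp1 in endothelial-like cells was low. It had 43 UMIs or 31.4 CPM in 495 niche cells and 23 UMIs or 8.89 CPM in 1310 distal cells (log2 ratio 1.81, 1.06 to 2.62; background 2.03% of genes called higher and 1.58% lower). General capillary-like cells, the common capillary endothelium, had 27.0 CPM in niche and 6.79 CPM in distal cells (log2 ratio 1.97, 0.93 to 3.11; 21 against 13 UMIs). Of these, the Pcdh17-led cluster had 8 niche UMIs, 5 of them in 1 cell, and 4 distal UMIs (log2 ratio 2.78, 0.97 to 5.05; 1.66% of genes were called higher). In the other 3 general capillary-like clusters Timp1 was not called, where 1.41%, 1.49% and 1.43% of genes were called higher and 1.18%, 2.05% and 1.79% lower (Hilpda-led, Aplnr-led and Sema3c-led). Their log2 ratios were 2.59 (-0.06 to 6.21; 4 niche and 2 distal UMIs), 0.32 (-2.41 to 2.44; 3 and 6 UMIs) and 2.56 (-0.01 to 8.55; 6 and 1 UMIs), in that order. With so few UMIs, a call or its lack does not set these clusters apart. Aerocyte-like cells, the gas-exchange capillaries, had 4 Timp1 UMIs in each library, 15.8 CPM in niche and 13.9 CPM in distal cells (1.31% of genes were called higher and 1.39% lower). Stromal level here means the level in mesenchymal-like cells with the C3-led cluster. For Timp1 it was 1234 CPM in niche and 84.9 CPM in distal cells. Timp1 in niche endothelial-like cells stood at 2.55% of its stromal level. There 5 fibroblast genes (Col1a1, Col1a2, Col3a1, Dcn and Mfap4) stood at a median of 1.37% (0.976% to 4.97%). In distal endothelial-like cells Timp1 stood at 10.5% of its stromal level and the 5 genes at a median of 0.639%. The C3-led cluster held 198 niche and 3 distal cells, so the niche and distal percentages rest on unlike sources. Without it, mesenchymal-like Timp1 was 631 CPM in niche and 77.1 CPM in distal cells. The part of free RNA in the endothelial-like values was not tested.

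Epithelial-like cells had 33 Timp1 UMIs or 94.9 CPM in 79 niche cells and 2 UMIs or 1.71 CPM in 244 distal cells, where 13.6% of 7839 genes were called 2-fold higher and 11.2% 2-fold lower. Of the niche UMIs, 28 came from the Lgals1-led cluster (119 CPM, 79.3 to 172), in 16 of its 54 cells. The 54 cells have no distal counterpart, and 50 of them had little Malat1, so this ratio compares different kinds of cells; the part of these features in it was not tested.

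Timp2 was found across many cell types in both libraries. Adventitial fibroblast-like cells were highest in both, with 1406 CPM (1305 to 1512) in niche and 1438 CPM (1297 to 1590) in distal cells. Aerocyte-like cells followed among clusters found in both, with 884 CPM (772 to 1007) in niche and 1038 CPM (923 to 1162) in distal cells. Distal alveolar type 1-like cells, the thin cells that line the gas-exchange surface, had 1185 CPM (962 to 1444), an interval that overlaps both distal neighbours. Niche lymphatic-like cells had 566 CPM (442 to 714). The other niche stromal clusters lay between 307 CPM (pericyte-like) and 505 CPM (lipofibroblast-like), and most neighbours in that order overlap. The C3-led cluster, highest for Timp1, had 393 CPM of Timp2 (352 to 437). Distal alveolar type 2-like cells were at 67.3 CPM (52.8 to 84.6).

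Between the libraries Timp2 differed little within clusters. Its log2 ratio was 0.01 (-0.28 to 0.30) in lipofibroblast-like, -0.03 (-0.21 to 0.15) in adventitial fibroblast-like, 0.17 (-0.21 to 0.56) in Mustn1-led myofibroblast-like and -0.30 (-1.28 to 0.68) in pericyte-like cells. In aerocyte-like cells it was -0.23 (-0.49 to 0.02). By these intervals a 2-fold difference lay outside the counting error in the first 3 and in aerocyte-like cells, but not in pericyte-like cells, which had 19 niche and 20 distal UMIs. In the Pcdh17-led general capillary-like cluster Timp2 was called lower, with 82.2 CPM (11 UMIs) in niche and 234 CPM (114 UMIs) in distal cells (log2 ratio -1.45, -2.55 to -0.61; 1.75% of genes were called lower there). Over all general capillary-like cells it had 209 CPM in niche and 248 CPM in distal cells (-0.24, -0.51 to 0.02). With no filter on cells the niche level of the Pcdh17-led cluster was 189.5 CPM. By class, the log2 ratio was -0.15 in mesenchymal-like, 0.11 in endothelial-like and 0.07 in epithelial-like cells.

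Timp3 was highest in a few vascular clusters and in adventitial fibroblast-like cells, and low in general capillary-like cells. Among niche clusters the endothelial-like cluster led by Ubd and Ido1, whose leading genes include the interferon-induced Cxcl9 and Cd274, had 1577 CPM (1375 to 1801). Lymphatic-like cells had 1204 CPM (1020 to 1412), adventitial fibroblast-like cells 1056 CPM (969 to 1149) and pericyte-like cells 922 CPM (698 to 1194), and each of these 4 overlaps the next. The Eln-led cluster had 614 CPM, the C3-led cluster 350 CPM and the Acta2-led cluster 197 CPM, so the clusters with most Timp1 were not those with most Timp3. In distal cells adventitial fibroblast-like cells led at 1279 CPM (1146 to 1423), followed by alveolar type 1-like cells at 822 CPM (638 to 1042), lipofibroblast-like cells at 609 CPM and arterial-like cells at 564 CPM, the last 3 overlapping in turn. Venous-like cells had 443 CPM and aerocyte-like cells 434 CPM. Distal cells of the Ubd-led and lymphatic-like clusters numbered 8 and 11, with 2091 CPM and 1180 CPM.

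Within matched clusters Timp3 went in different ways. Pericyte-like cells had 922 CPM in 21 niche cells and 189 CPM in 35 distal cells (log2 ratio 2.23, 1.31 to 3.42; 57 against 10 UMIs; 6.05% of genes were called higher and 4.36% lower there). A single niche cell held 23 of the 57 UMIs, the level was 595 CPM after thinning, and thinned shares of cells with a UMI were 47.6% (25.7% to 70.2%) in niche and 17.4% (4.95% to 38.8%) in distal cells. The Mustn1-led myofibroblast-like cluster had 275 CPM in niche and 424 CPM in distal cells (-0.63, -1.07 to -0.19), opposite in sign to its Timp1 ratio and under 2-fold. Lipofibroblast-like cells had 722 CPM in niche and 609 CPM in distal cells (0.24, -0.01 to 0.50), and aerocyte-like cells 438 CPM in niche and 434 CPM in distal cells (0.01, -0.37 to 0.39). In the Sema3c-led general capillary-like cluster Timp3 was called higher, with 61.3 CPM (16 UMIs) in niche and 16.9 CPM (6 UMIs) in distal cells (1.79, 0.43 to 3.50; 1.43% of genes were called higher). At resolution 2 this cluster had 36.4 CPM in niche and 3.46 CPM in distal cells. General capillary-like cells as a whole had 79.6 CPM in niche and 73.6 CPM in distal cells (0.12, -0.34 to 0.55).

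For endothelial-like cells as a class, Timp3 had 409.5 CPM in niche and 205 CPM in distal cells (log2 ratio 0.999, 0.83 to 1.17), just short of 2-fold, and 1.04 under TMM scaling, which passes it. The Ubd-led and lymphatic-like clusters held 32 and 34 of the 495 niche cells and 8 and 11 of the 1310 distal cells, and 218 and 151 of the 560 niche Timp3 UMIs of the class. Without clusters that held under 20 cells in a library the log2 ratio was 0.48, and within clusters 0.27. In epithelial-like cells Timp3 was called lower, with 48.9 CPM (17 UMIs) in niche and 129 CPM (151 UMIs) in distal cells (-1.37, -2.22 to -0.68), where 13.6% of all genes were called higher and 11.2% lower. The call was lost without cells of little Malat1 (-0.59, -1.74 to 0.26) and at clustering resolution 0.5 (-0.23, -1.27 to 0.56). The distal UMIs of epithelial-like cells came from alveolar type 1-like and type 2-like cells (68 and 83 UMIs), and the Lgals1-led cluster had 21.3 CPM. In the Lck-led cluster of no class, Timp2 (17 niche UMIs, 1 distal UMI) and Timp3 (24 niche UMIs, 1 distal UMI) were called higher, where 5.01% of genes were called higher and 6.31% lower. At clustering resolution 2 the direction of Timp2 turned, with 264 CPM in niche and 645 CPM in distal cells, and Timp3 had 215 CPM in niche and 227 CPM in distal cells. Fibroblast transcripts stood beside them in the Lck-led cluster, with 25 niche and 0 distal UMIs of Dcn, and their part was not tested.

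**Figure D3:**
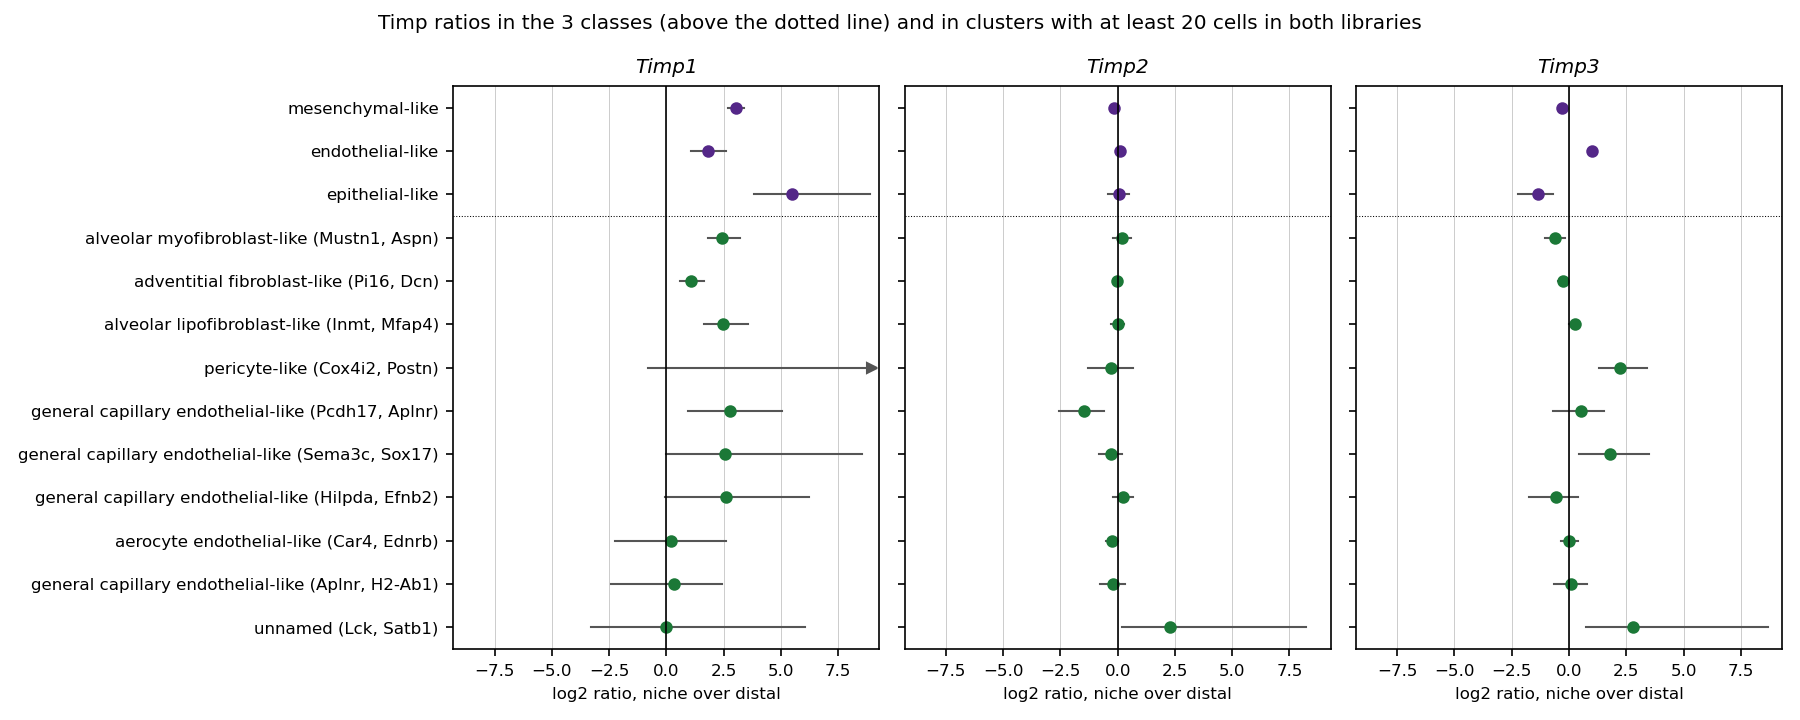
Log2 ratio of niche over distal (horizontal axis, 0 marks equal levels) with exact 95% intervals for each Timp gene, in the mesenchymal-like, endothelial-like and epithelial-like classes above the dotted line and in clusters with at least 20 cells in both libraries below it; an arrow marks an open interval and no point is drawn where a library had 0 UMIs. Timp1 lies right of 0 in the fibroblast-like clusters (2.45, 1.09 and 2.49), where Timp2 lies at 0.17, -0.03 and 0.01.

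Transcripts of all 3 genes in the same cell were most frequent in niche adventitial fibroblast-like cells and in the Eln-led cluster. At 1200 UMIs per cell, all 3 were found in 14 of 127 niche (11.0%) and 3 of 78 distal adventitial fibroblast-like cells (3.85%), and in 11 of 100 niche cells of the Eln-led cluster (11.0%). In the C3-led cluster it was 10 of 198 cells (5.05%). Lipofibroblast-like cells had all 3 in 2 of 145 niche (1.38%) and 3 of 149 distal cells (2.01%), and Mustn1-led cells in 7 of 91 niche (7.69%) and 4 of 95 distal cells (4.21%). None of the 3 was found in 218 of 309 niche (70.6%) and 523 of 752 distal general capillary-like cells (69.5%), while only 8 of 127 niche and 5 of 78 distal adventitial fibroblast-like cells had none. These counts depend on depth and cannot show that a cell lacks a transcript.

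Of the proteases that the inhibitors block, matrix metalloproteinases come first. Of 18 matrix metalloproteinase genes looked up, 7 were listed in both tables and 6 were measured in mesenchymal-like cells, of which 0 were called higher and 0 lower (median log2 ratio -0.03, against -0.13 over all genes). With 2.57% of all genes called higher and 5.63% lower in this class, a count of 0 among 6 is near the background. Mmp2, the gelatinase that TIMP2 helps to activate, had 259 CPM in niche and 447 CPM in distal cells (log2 ratio -0.79, -0.97 to -0.60). Mmp14, its membrane-bound activator, had 174 CPM in niche and 93.4 CPM in distal cells (0.89, 0.56 to 1.25). Mmp3, stromelysin-1, had 115 CPM in niche and 80.4 CPM in distal cells (0.51, 0.14 to 0.90). Cluster by cluster, Mmp14 was called higher in Mustn1-led cells, with 214 CPM in niche and 60.6 CPM in distal cells (1.77, 0.95 to 2.79). It was 1 of 5 measured members there, where 3.42% of all genes were called higher. Mmp3 was called higher in lipofibroblast-like cells, with 62.6 CPM in niche and 15.9 CPM in distal cells (1.89, 0.67 to 3.55). It was 1 of 6 measured members there, against 2.38% of all genes. In the same cells Mmp2 (0.08, -0.25 to 0.41) and Mmp14 (0.09, -0.54 to 0.74) were not called. Mmp11 was called lower in adventitial fibroblast-like cells, as 1 of 6 measured members, against 3.84% of all genes. Mmp2 was highest in adventitial fibroblast-like cells, with 511 CPM in niche and 878 CPM in distal cells (-0.78, -1.04 to -0.52). Mmp9, Mmp17 and Adam12 were listed in the niche table only, with 19, 19 and 23 UMIs, and were given no ratio.

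Of the proteases held by TIMP3, ADAM genes had 0 of 6 measured members called higher and 1 lower in mesenchymal-like cells (median -0.22, against -0.13 over all genes, of which 2.57% were called higher and 5.63% lower). The lower one was Adam33, with 18.3 CPM in niche and 54.3 CPM in distal cells (-1.57, -2.19 to -0.95). Adam17, the shedding enzyme for TNF, had 29.4 CPM in niche and 33.7 CPM in distal cells (-0.21, -0.83 to 0.47), and Adam10 29.4 CPM in niche and 35.8 CPM in distal cells (-0.30, -0.90 to 0.36). ADAMTS genes had 1 of 8 measured members higher and 1 lower, against the same background (median -0.36). Adamts4, an aggrecanase, had 72.4 CPM in niche and 27.1 CPM in distal cells (1.39, 0.80 to 2.08), and Adamts9 had 11.5 CPM in niche and 33.7 CPM in distal cells (-1.55, -2.35 to -0.76). Adamts1 was called lower in Mustn1-led cells, with 198 CPM in niche and 471 CPM in distal cells (-1.24, -1.72 to -0.78). In that cluster 3.92% of all genes were called lower. Adamts1 was called higher in pericyte-like cells, with 243 CPM (15 UMIs) in niche and 37.7 CPM (2 UMIs) in distal cells (2.41, 0.58 to 5.86). There 6.05% of all genes were called higher. Adam17 was called lower in lipofibroblast-like cells (10 niche and 21 distal UMIs; -1.17, -2.46 to -0.06), against 2.62% of all genes. In the Sema3c-led general capillary-like cluster Adam17 was called higher (13 and 5 UMIs; 1.74, 0.24 to 3.67), against 1.43% of all genes.

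Genes of proteins that bind TIMPs or inhibit the same enzymes had 0 of 10 members higher and 2 lower in mesenchymal-like cells (median -0.35), where 2.57% of all genes were called higher and 5.63% lower. Cd63, the surface partner of TIMP1, had 1419 CPM in niche and 1007 CPM in distal cells (0.50, 0.39 to 0.60). In endothelial-like cells Cd63 was called higher, with 261 CPM in niche and 60.3 CPM in distal cells (2.11, 1.84 to 2.40). Niche lymphatic-like and Ubd-led cells had 1404 CPM and 897 CPM of it, while aerocyte-like cells had 23.7 CPM in niche and 10.4 CPM in distal cells. Efemp1, a matrix partner of TIMP3, was called lower in mesenchymal-like cells, with 84.8 CPM in niche and 175 CPM in distal cells (-1.04, -1.35 to -0.74), a call that is lost once the TMM shift is taken off. Kdr, the VEGF receptor that TIMP3 can block, was highest in aerocyte-like cells, with 1432 CPM in niche and 1520 CPM in distal cells (-0.09, -0.29 to 0.12), and was called lower in mesenchymal-like cells on 9 niche and 12 distal UMIs. Reck, a membrane-anchored inhibitor, had 23.9 CPM in niche and 43.4 CPM in distal mesenchymal-like cells (-0.87, -1.48 to -0.24), and Lrp1, a receptor that clears TIMPs from the matrix, had 244 CPM in niche and 292 CPM in distal cells (-0.26, -0.47 to -0.05).

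**Figure D4:**
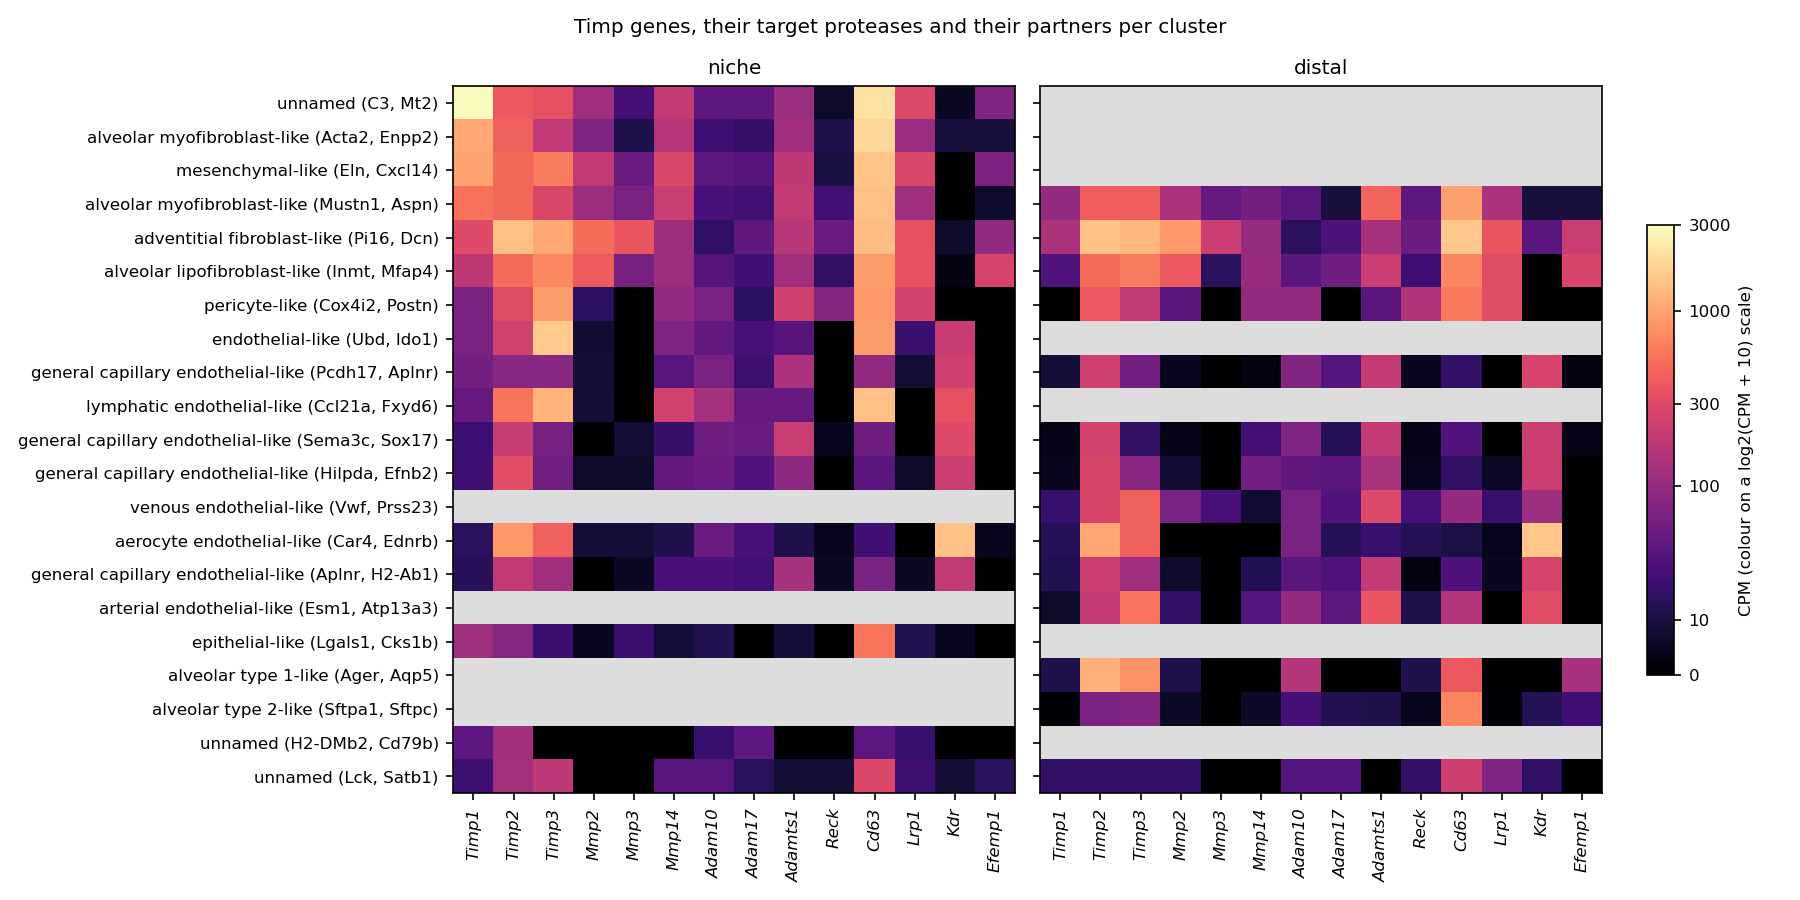
Level (colour, CPM on a log2(CPM + 10) scale) of the 3 Timp genes, of proteases they inhibit and of their partners in each cluster with at least 20 cells, niche panel left of the distal panel; grey rows had under 20 cells in that library. Timp1 is bright in the upper niche rows (2887, 1064 and 1011 CPM), Mmp2 in adventitial fibroblast-like rows (511 CPM in niche and 878 CPM in distal cells) and Kdr in aerocyte-like rows.

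Of the plasminogen system, which activates metalloproteinases from the outside, Serpine2 and Plat were called higher in mesenchymal-like cells, where 2.57% of all genes were. Serpine2, a serpin that blocks plasminogen activators, had 749 CPM in niche and 261 CPM in distal cells (1.52, 1.33 to 1.72). It is a leading gene of the Eln-led cluster, which held 100 niche and 2 distal cells. Serpine2 was not called in any mesenchymal-like cluster found in both libraries, and in lipofibroblast-like cells its log2 ratio was 0.16 (-0.19 to 0.51). Plat, the tissue-type activator, had 294 CPM in niche and 118 CPM in distal cells (1.30, 1.02 to 1.62). Of 13 matrix genes, 3 were called higher and 0 lower (median 0.54), against 2.57% and 5.63% of all genes. They were Tnc, with 103 CPM in niche and 14.1 CPM in distal cells (2.82, 2.07 to 3.80), Vcan (1.72, 1.09 to 2.48) and Lum (1.04, 0.88 to 1.21). Lum is a leading gene of the Acta2-led cluster, where Vcan was also highest, and that cluster held 101 niche and 3 distal cells. Among mesenchymal-like clusters found in both libraries, Tnc and Lum were called only in Mustn1-led cells, and Vcan in none. The part of cluster make-up in these class ratios was not tested. In Mustn1-led cells 7 of 13 matrix genes were called higher, against 3.42% of all genes, among them Tnc (4.37, 2.39 to 10.28; 47 niche against 1 distal UMI), Fn1 (2.52, 1.20 to 4.62) and Eln (1.42, 1.18 to 1.67). The other matched clusters had fewer. Lipofibroblast-like cells had 1 of 10 measured matrix genes called higher (Dcn), against 2.38% of all genes. Adventitial fibroblast-like cells had 0 of 12, against 2.03%, and pericyte-like cells 2 of 7, against 6.05%.

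Of 14 measured genes known as inducers of Timp1 or as their receptors and effectors, 3 were called higher and 1 lower in mesenchymal-like cells (median 0.31), where 2.57% of all genes were called higher and 5.63% lower. Il6 had 597 CPM in niche and 282 CPM in distal cells (1.08, 0.89 to 1.28), Tgfb1 99.3 CPM in niche and 39.1 CPM in distal cells (1.33, 0.83 to 1.89), and Osmr, the oncostatin M receptor, 73.7 CPM in niche and 35.8 CPM in distal cells (1.02, 0.50 to 1.62). Il6ra was lower (-1.10, -1.76 to -0.43), a call that is lost once the TMM shift is taken off. Lif and Fosl1, also on this list, were listed in the niche table only, with 233 and 36 UMIs. They were given no ratio and are not among the 14. The AP-1 genes Fos (-0.50), Jun (-0.68) and Junb (-0.26) had negative ratios under 2-fold. In lipofibroblast-like cells Il6 (2.58, 1.91 to 3.39) and Osmr (1.53, 0.57 to 2.70) were called higher, where 2.38% of all genes were called higher. In adventitial fibroblast-like cells 0 of 14 were called in either direction, where 2.03% of all genes were called higher and 3.84% lower; the difference between the clusters was not tested. The C3-led cluster had 1218 CPM of Il6 and 135 CPM of Osmr, next to 858 CPM of Il6 in niche adventitial fibroblast-like cells.

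In endothelial-like cells these lists had Mmp14 (51.9 CPM in niche and 25.9 CPM in distal cells), Adamts4, Plau, Serpine2 and Il6 called higher besides Cd63, and 0 members called lower, with 2.03% of all genes called higher and 1.58% lower in the class. The matrix list had 6 of 12 measured members called higher there (median 1.23), among them Col1a1, Col1a2, Col3a1 and Lum, genes of fibroblasts. Col1a1 stood at 17.6 CPM in niche and 7.34 CPM in distal endothelial-like cells, against 1804 CPM in niche and 1158 CPM in distal mesenchymal-like cells, and the part of free RNA was not tested. In epithelial-like cells Plau (5.69, 4.04 to 9.09), Plaur (2.93, 1.78 to 4.28), Cd82 and 6 of 9 matrix genes were called higher, and Mmp15, Adam19 and 7 of 13 inducers and effectors lower, among them Fos (-1.77), Jun (-1.69) and Socs3 (-1.88), with 13.6% and 11.2% of all genes called in the same directions. Of the 79 niche cells, 54 were of the Lgals1-led cluster, which held 0 distal cells. Of the 244 distal cells, 215 were alveolar type 2-like, so these calls compare different kinds of cells. The matrix genes called include Col1a1, Col1a2 and Col3a1. The 5 fibroblast genes named above stood at a median of 1.19% of their stromal level in niche and 0.38% in distal epithelial-like cells. The part of free RNA was not tested.

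The genes whose levels ran most like each member were found by Pearson's correlation of log2(CPM + 10) over 31 profiles, 1 for each cluster and library with at least 20 cells, among 5716 genes with at least 200 UMIs. Profiles share libraries and depth, so the values are a description. For Timp1 they were Ccl7 (r = 0.92), a chemokine gene for monocytes, Pdzrn3 (0.89), the matrix gene Vcan (0.89), Tnfaip6 (0.88), Cyp7b1 (0.87), Igf1 (0.87), Spsb1 (0.87) and the chemokine gene Ccl2 (0.86). These 8 were highest in the niche, in the Acta2-led cluster (5 genes) or the C3-led cluster (3 genes). For Timp2 they were Tmem29 (0.85), Tnxb (0.85), Ctsl (0.83), B4gat1 (0.82), Fkbp7 (0.78), Pmp22 (0.75), Arl1 (0.75) and Laptm4a (0.75). For Timp3 they were Prkcdbp (0.82), Tmem29 (0.80), Kdelc2 (0.76), B4gat1 (0.75), Arl8b (0.75), Cyr61 (0.74), Ctsl (0.73) and Hsp90b1 (0.73). Tmem29, B4gat1 and Ctsl, the gene of cathepsin L, are on both of the last lists. Timp2 and Timp3 had r = 0.70 with each other, Timp1 had 0.28 with Timp2 and 0.31 with Timp3.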

How the data were processed

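Cells from 2 mouse lung libraries (niche and distal, 1 each) were analysed. The authors deposited unnormalised UMI counts, 1 row per gene and 1 column per cell. Tools named in the submitters' processing notes are Cell Ranger 2.1.1 and R 3.4.1, with the build mm10, and per the labels' protocols the chemistry was Chromium 3' with sequencing on a HiSeq. The members, gene lists and markers were chosen with earlier results of these data known. Barcodes with under 500 genes (50 niche, 9 distal) were removed; a limit of 10% mitochondrial UMIs removed 0. Counts of the 10198 common genes were scaled to 10000 per cell and logged. From 2000 variable genes without Timp1 to Timp4, 20 components and 15 neighbours, cells were clustered by Leiden at resolution 1 (scanpy 1.11.5 and leidenalg 0.10.2 in Python 3.11.15; intervals with scipy 1.17.1). The marker list with the highest mean standardised level gave the class. A name needed at least 3 markers in 25% of cells, and a subtype also 1 of its markers among the 10 leading genes. A cluster whose leading genes held more markers of another class than of its own was left out of its class. Doublets called by Scrublet (10 niche and 24 distal cells) were kept.

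Ratios used UMIs summed per class or cluster, with 0.5 UMI added to each sum, and exact 95% conditional binomial intervals. Levels have exact Poisson and shares Clopper-Pearson intervals. A gene was measured with at least 10 UMIs over both libraries. A count of 0 was read as up to 3 UMIs. Thinning to 1200 UMIs used the 20th percentile of the shallower library. Low Malat1 meant under 0.22% of UMIs. Named genes were the members, the 8 most alike of each, the listed genes called in a class and a fixed set of proteases and partners; those named within single clusters were picked after their values were seen, as called there. Listed genes had at least 10 UMIs (niche) or 12 UMIs (distal) in total, so an unlisted gene is not a count of 0. Since each count is 1 molecule tagged at its 3' end, levels were not divided by gene length, and members were not ranked against each other. The ratio step was run on simulated Poisson counts, the model that its intervals assume. That run checks the calculation only, not the spread between cells or libraries. Promoters and starts are from RefSeq tables, coordinates from GENCODE; the 3 symbols matched 1 entry each. A gene of the plasminogen list, and the counts of that list, are not reported here. Alternatives changed the cell filters, depth, scaling, clustering and the clusters in a class.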

Additional observations from a re-analysis of the deposited data

How the results depend on the processing

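No paired analysis was possible because each group has 1 library, and for the same reason no library could be left out. Of 123 alternative values of the 9 class ratios (log2, niche over distal), 102 moved by less than the counting interval, 21 moved further and 0 reversed a called ratio. Timp1 in mesenchymal-like cells ran from 2.02 to 3.91, in endothelial-like cells from 1.53 to 2.77 and in epithelial-like cells from 4.50 to 7.59, always higher in the niche. The planned removal of the mesenchymal cluster led by chemokine genes is the reported value, because the naming rule had already left the C3-led cluster out. With that cluster in the class (chosen after seeing the data), Timp1, Timp2 and Timp3 had 3.85, -0.30 and -0.46. With clusters under 20 cells left out (chosen after seeing the data), they had 2.02, 0.17 and 0.0281 in mesenchymal-like cells, and Timp3 had 0.48 in endothelial-like cells. Within clusters, weighted by distal UMIs, mesenchymal-like values were 2.10, 0.0161 and 0.003, and in endothelial-like cells Timp2 had -0.37 and Timp3 0.27. No epithelial cluster had 20 cells in both libraries, so these settings gave no epithelial value. At resolution 2 mesenchymal-like Timp1 had 3.91 and Timp3 -0.49, since there the Eln-led cluster was left out in place of the C3-led one. At resolution 0.5 Timp3 had 0.77 in endothelial-like and -0.23 in epithelial-like cells, and Timp2 1.05 in epithelial-like cells. Without low-Malat1 cells epithelial-like Timp2 had 0.52 and Timp3 -0.59. Both Timp3 values, -0.23 and -0.59, end the call of lower Timp3 in epithelial-like cells. Without the top 1% of cells endothelial-like Timp1 had 2.77, and with no filter on cells mesenchymal-like Timp2 had -0.0112. The cause was not tested for these last 2 values. TMM scaling took endothelial-like Timp3 past 2-fold, at 1.04.

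Of 660 alternative cluster levels, 604 moved by less than the counting interval. A cluster with no close match after re-clustering, or with under 20 cells in a setting, gave no value there. The count therefore leaves out clusters that broke up. At resolution 0.5 the cluster matched to the Aplnr-led general capillary-like one had niche Timp3 of 801 CPM, against 121 CPM. With Timp genes allowed among the variable genes the matched cluster had 981 CPM. Distal levels were 280 CPM and 304 CPM in these settings, against 114.5 CPM. Which cells the matched clusters had taken in was not tested. Niche Timp1 in lipofibroblast-like cells was 661 CPM at resolution 0.5 and 63.9 CPM at resolution 2, against 185 CPM. In the Lck-led cluster, resolution 2 gave Timp2 levels of 264 CPM in niche and 645 CPM in distal cells, which turned its direction. The cause was not tested. The C3-led cluster had 2136 to 3211 CPM of Timp1 over the settings tried. Depth limits the Timp1 levels of endothelial-like and epithelial-like clusters, most of which rest on under 10 UMIs.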
